A study of Mus musculus with 2 samples.

Results

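The miR-344 family was studied through its 13 microRNA (miRNA) genes, every gene that the GENCODE M21 annotation names Mir344, alone or followed by a letter or a hyphen, out of 2202 annotated miRNA genes. Their choice rested on the gene symbol, with no measured value used. The data were small RNA sequencing counts from mouse hippocampus, taken from B6CASTF1/J males (F1 animals of the strains C57BL/6J and CAST/EiJ) at 14 days of age. There was 1 group with 2 replicates, each label listing 3 males under numbers of their own but the same donor identifier, so SDs measure the spread of these samples, some of which may be technical. The labels give neither a treatment nor an altered gene. No other tissue was sequenced here, so enrichment of the family in brain was not tested. Levels are counts per 1000000 counts assigned to miRNA genes (CPM), and each count stands for a hairpin, with its arms not separated.

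A miRNA gene is transcribed into a longer RNA that folds into a hairpin. The enzymes Drosha and Dicer cut the hairpin into a short duplex, and an arm of that duplex, the mature miRNA, is loaded into an Argonaute protein. The loaded arm finds target transcripts mainly through its seed, bases 2 to 8 from the 5′ end, so members of a family with different seeds are read as having different targets. The Mir344 genes lie in the part of mouse chromosome 7 that corresponds to the human Prader-Willi region, which holds imprinted genes such as Snrpn and Ndn. Expression by parental chromosome was not measured here.

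All 13 genes lay on the minus strand of chromosome 7 (mm10), between positions 61683124 and 62085310, a span of 402 kb. The gaps between neighbouring members ran from 2.08 kb, between Mir344d-1 and Mir344d-2, to 63.8 kb, between Mir344g and Mir344f, with a median of 40.6 kb. The nearest protein-coding genes were Snrpn, which encodes a splicing protein, 1543 kb below the cluster, and Ndn, which encodes necdin, a protein of neurons that have stopped dividing, 261 kb above it. Magel2, Mkrn3 and Peg12, further genes of the same imprinted region, began 292, 332 and 377 kb above the cluster. Within the cluster, 7 members, from Mir344d-3 to Mir344, lay in introns of the long non-coding RNA gene A230057D06Rik, which has the same strand. Mir344-2 lay in an intron of A330076H08Rik, another non-coding transcript on that strand. Mir344d-1, Mir344d-2, Mir344f and Mir344i overlapped no gene of the same strand.

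Mir344g had a position unlike the other named members. Of the 71 bases of its hairpin, 70 fell inside the annotated first exon of A330076H08Rik (61981996 to 61982358), and 1 base lay beyond the 5′ end of that exon. Both mature arms of Mir344g were therefore also found, on the same strand, in the annotated A330076H08Rik transcript. An exonic position was seen in no other member. Of the unnamed miRNA genes of the region, Gm23490 and Gm22466 lay in exons of A230057D06Rik. Short fragments of that exon cannot be told apart from reads of the hairpin in these counts.

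The arms below are from RefSeq (GRCm38.p6), whose table held all 13 hairpins, each identical to the annotated one. They are shown because the members differ in whether an arm lies in their own hairpin alone or in several. Counts were not separated by arm. Capitals mark the seed. The first 3 pairs belong to Mir344b (61790519 to 61790581), Mir344g (61982289 to 61982359) and Mir344f (62046181 to 62046248), and each of these 6 arms was found in its own hairpin and in no other annotated hairpin.
mmu-miR-344b-5p: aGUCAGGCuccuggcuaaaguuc
mmu-miR-344b-3p: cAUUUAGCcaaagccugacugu
mmu-miR-344g-5p: aGUCAGGCuccuggcaggagu
mmu-miR-344g-3p: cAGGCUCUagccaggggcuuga
mmu-miR-344f-5p: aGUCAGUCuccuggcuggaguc
mmu-miR-344f-3p: cUCUAGCCaggaccugacuac

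The next arms were each found in several hairpins. The arms of miR-344 belong to both Mir344 (61877770 to 61877864) and Mir344-2 (61940027 to 61940106). The miR-344h arms belong to both Mir344h-1 (61739350 to 61739409) and Mir344h-2 (61742366 to 61742425), and the 5′ arm is also that of Mir344e (61735537 to 61735602). The miR-344d-3p arm is common to Mir344d-1 (61683124 to 61683192), Mir344d-2 (61685272 to 61685351) and Mir344d-3 (61726249 to 61726328). The listed arm of Mir344i (62085223 to 62085310) also lies in the unnamed miRNA gene Gm24923.
mmu-miR-344-5p: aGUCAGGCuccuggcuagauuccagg
mmu-miR-344-3p: uGAUCUAGccaaagccugacugu
mmu-miR-344h-5p: cAGGCUUCuggcuauauucc
mmu-miR-344h-3p: gGUAUAACcaaagcccgacugu
mmu-miR-344d-3p: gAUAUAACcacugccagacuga
mmu-miR-344i: aAGUCAGGcuccuggcugga

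The last arms are of members that were at or near 0 although at least 1 arm lies in their own hairpin only. They are the 3′ arms of Mir344e and Mir344c (61837311 to 61837402) and the 5′ arms of the Mir344d genes. The 5′ arm of Mir344c, also found in its own hairpin only, is not printed.
mmu-miR-344e-3p: gAUAUAACcaaagccugacuau
mmu-miR-344c-3p: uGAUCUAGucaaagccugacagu
mmu-miR-344d-1-5p: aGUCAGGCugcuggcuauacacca
mmu-miR-344d-2-5p: aGUCUGGUugcuggcuauauucca
mmu-miR-344d-3-5p: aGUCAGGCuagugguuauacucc

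The family held 25 listed arms, 18 different sequences and 11 different seeds. The seed GUCAGGC was the most common, on the 5′ arm of 7 members (Mir344d-1, Mir344d-3, Mir344b, Mir344c, Mir344, Mir344-2 and Mir344g), and no arm outside the family in the RefSeq table had it. The 5′ arm of Mir344i reads the same stretch from 1 base earlier and so has another seed, AGUCAGG. The 3′ arms were more varied: GAUCUAG stood on Mir344c, Mir344 and Mir344-2, and AUAUAAC on the Mir344d genes and Mir344e. The last is also the seed of miR-410-3p, a miRNA of the imprinted cluster on chromosome 12, and the seed AGGCUCU of miR-344g-3p is also that of miR-7070-3p. Mir344b and Mir344f each had a 3′ seed of their own, AUUUAGC and UCUAGCC, so the 3 most abundant members had 3 different 3′ seeds.

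The hairpins were searched for the stretches that most members share. AGUCAGGCU, 9 bases near the 5′ end of the hairpin, occurred in 9 of the 13 members. With both strands searched, it was found in 15 of all 2202 annotated hairpins (0.681%), 4 of them unnamed genes of the same region. AAAGCCUGAC, 10 bases within 3′ arms, occurred in 5 members and in no other annotated hairpin on either strand (0.227% of all). Such matches describe the letters only, and AGUCAGGCU overlaps the seed GUCAGGC.

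The 13 hairpins fell into 4 groups when each was joined to the member it most resembled, and each group was a contiguous block on the chromosome. In order of position these were the 3 Mir344d genes, then Mir344e with Mir344h-1 and Mir344h-2, then Mir344b, Mir344c, Mir344 and Mir344-2, then Mir344g, Mir344f and Mir344i. Identity is given as matching bases in percent of the shorter hairpin, from a global alignment. The median was 89.7% over the 15 pairs within a group and 72.5% over the 63 pairs between groups. Because the groups were made from identity, a higher median within them was built in. They were not fully apart: identity between Mir344d genes and Mir344e was 84.8%, above the lowest within a group, 81.5% for Mir344c and Mir344. Across all 78 pairs identity fell with distance along the chromosome (Spearman's rho = -0.71, across pairs that share hairpins, as a description).

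Mir344h-1 and Mir344h-2 were identical over all 60 bases, 3.02 kb apart, and none of their 22-base windows was their own. The hairpins are printed once, with the arms in capitals.
Mir344h-1 and Mir344h-2: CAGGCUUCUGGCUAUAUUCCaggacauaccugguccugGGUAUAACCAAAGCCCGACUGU

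Mir344 and Mir344-2, 62.3 kb apart, matched at 77 of 80 aligned bases. Laid side by side without gaps, they differed by G52A in the loop, counted from the 5′ end of the Mir344 hairpin, and by a run of 4 bases near the 3′ end, beyond both arms. Of their 22-base windows, 56.8% in Mir344 and 45.8% in Mir344-2 occurred in no other annotated hairpin. In Mir344b and Mir344c that share was 100%, in Mir344g 94% and in Mir344f 91.5%. It was 88.9% in Mir344e, 64.2% in Mir344i and from 47.9% to 50.8% in the Mir344d genes.

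**Figure D1:**
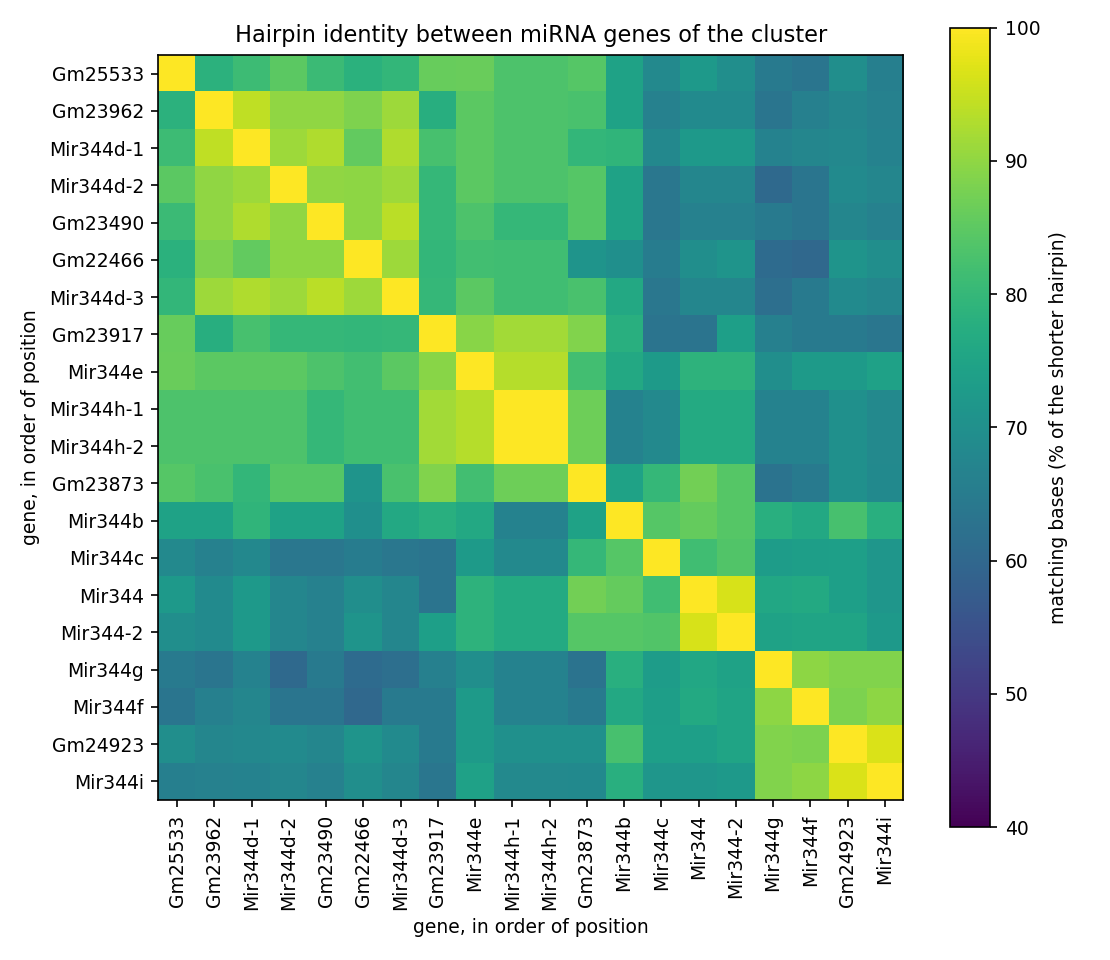
Matching bases in percent of the shorter hairpin (colour) for each pair of the 13 Mir344 genes and the 7 other miRNA genes of the region, in order of position on both axes. Bright blocks along the diagonal are the 4 groups of like copies, with Mir344h-1 and Mir344h-2 at 100%.

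The tables held 3793934 counts on miRNA genes in replicate 1 and 2554997 in replicate 2, so 1 count was worth 0.264 and 0.391 CPM. Reads mapping to several places stood in a row of their own, at 26.3% and 37.5% of all reads. Per count assigned to miRNA genes they were 0.957 and 1.06. Unmapped reads were 41.3% of all reads in replicate 1 and 20.7% in replicate 2, so the libraries also differed in that share. As a check of the tissue label, 15 of 19 neuron-enriched miRNA genes reached 2 CPM in both libraries, with 126648 and 119584 CPM in sum, of which Mir139 alone gave 67421 and 76115 CPM. The other 4 were Mir124a-1 (12 and 4 counts), Mir124a-2 (5 and 1), Mir124a-3 (0 and 4) and Mir9-2 (6 and 2). A list of 8 miRNA genes of liver, muscle, islets and red cells summed to 469 and 530 CPM, and 4 of them also reached 2 CPM in both libraries. These were Mir375 (379 and 302 CPM), Mir451a (41.9 and 162), Mir206 of muscle (27.4 and 35.6) and Mir122 (20.6 and 29.7). The other 4, all muscle genes (Mir1a-1, Mir1a-2, Mir133a-1 and Mir133a-2), were at 0. They are named as numbered copies, and reads mapping to several places are not counted, so these zeros are not shown to be absence. Of all 2202 miRNA genes, 19.3% reached that minimum.

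The whole family took 201 counts in replicate 1 and 123 in replicate 2. That was 53.0 CPM (95% exact binomial interval 45.9 to 60.8) and 48.1 CPM (40.01 to 57.4), or 0.00506% ± 0.000342 of counts (SD, n = 2). The intervals of the libraries overlapped. They cover no error beyond that of counting, because reads were amplified without molecular identifiers and are not independent. For scale, the median of the detected miRNA genes was 88.3 CPM for a single gene.

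Of the 13 members, 3 were detected at 2 CPM or more in both libraries (23.1%, where 19.3% of all 2202 miRNA genes were detected). They were Mir344b, Mir344g and Mir344f. A further 2, Mir344c and Mir344d-1, had a few counts, and 8 had no count in either library (61.5%, where 65.6% of all miRNA genes had none). Both shares of the family were near those of miRNA genes in general.

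Mir344b, in an intron of A230057D06Rik, was the most abundant member. It had 90 counts in replicate 1 and 93 in replicate 2, or 23.7 CPM (19.1 to 29.2) and 36.4 CPM (29.4 to 44.6). Its mean was 30.1 ± 8.96 CPM (SD, n = 2), rank 259 among all miRNA genes. Its hairpin is printed with the arms in capitals, since it gave the largest part of the counts.
Mir344b: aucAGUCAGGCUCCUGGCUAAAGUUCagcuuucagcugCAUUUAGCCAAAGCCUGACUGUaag

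Mir344g, at the first exon of A330076H08Rik, came next. It had 84 counts in replicate 1 and 13 in replicate 2, or 22.1 CPM (17.7 to 27.4) and 5.09 CPM (2.71 to 8.70). Its mean was 13.6 ± 12.1 CPM (SD, n = 2), rank 310. The level was thus high in replicate 1 and low in replicate 2. In replicate 1 its interval overlapped that of Mir344b, and in replicate 2 it lay below it.
Mir344g: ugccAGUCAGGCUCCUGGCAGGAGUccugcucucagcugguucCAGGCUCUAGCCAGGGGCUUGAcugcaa

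Mir344f, which overlapped no annotated gene of the same strand, had 22 counts in replicate 1 and 13 in replicate 2. These were 5.80 CPM (3.63 to 8.78) and 5.09 CPM (2.71 to 8.70), with a mean of 5.44 ± 0.503 CPM (SD, n = 2), rank 364. The libraries did not stand apart for this member. Its level equalled that of Mir344g in replicate 2, where both had 13 counts, and was below it in replicate 1. By mean level the order was Mir344b, Mir344g, Mir344f. The means of Mir344g and Mir344f differed by less than the SD of Mir344g, and those of Mir344b and Mir344g by more than either SD.

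Mir344c had 3 and 4 counts, or 1.18 ± 0.548 CPM (SD, n = 2), under the detection minimum in both libraries. Mir344d-1 had 2 counts in replicate 1 and 0 in replicate 2. Mir344, the member for which the family is named, had 0 counts in both libraries, as did Mir344-2, Mir344d-2, Mir344d-3, Mir344e, Mir344h-1, Mir344h-2 and Mir344i. A count of 0 allows a level of up to 0.791 CPM in replicate 1 and 1.17 CPM in replicate 2 (3 counts of the total), for reads that map to 1 place and by counting error only. That bound says nothing of Mir344h-1 and Mir344h-2, whose hairpins are identical, so that no read inside them maps to 1 place. No member had a count on the strand opposite to it.

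**Figure D2:**
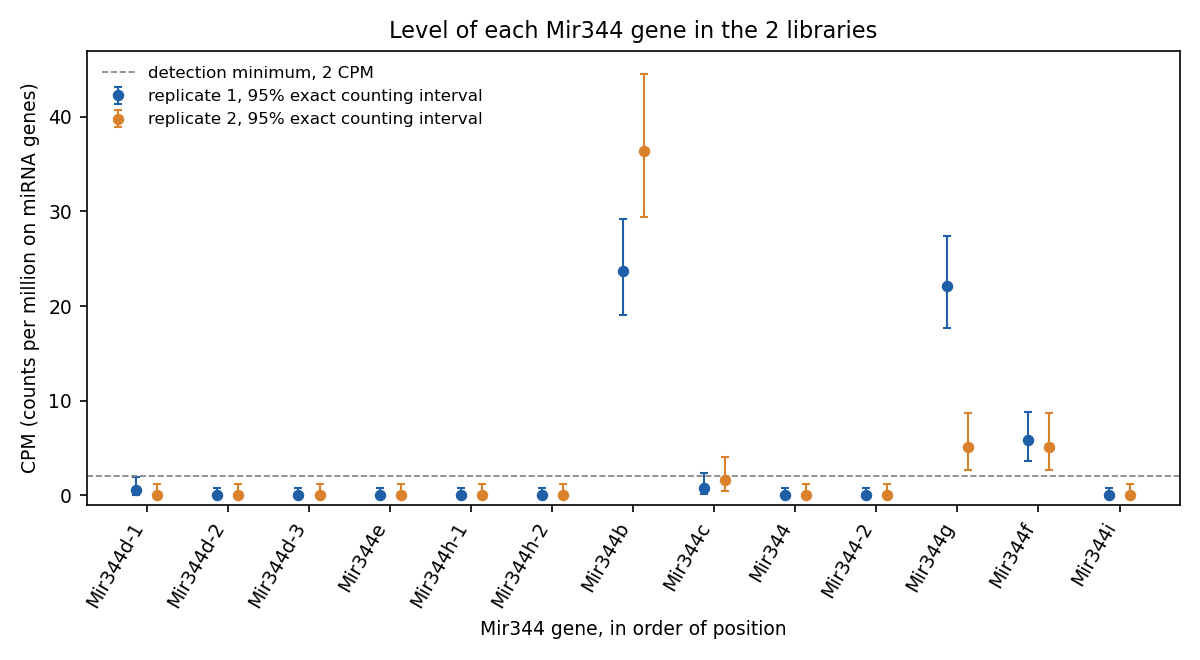
CPM of the 13 Mir344 genes in order of position, as points for replicate 1 (blue) and replicate 2 (orange) with 95% exact counting intervals (for a count of 0, a bar up to 3 counts), and the detection minimum of 2 CPM as a dashed line. Mir344b, Mir344g and Mir344f stand above the line in both libraries, and Mir344g stands at 22.1 CPM in replicate 1 against 5.09 CPM in replicate 2.

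By position, the counts came from the middle and the upper end of the cluster. The block of Mir344b, Mir344c, Mir344 and Mir344-2 had 93 and 97 counts, 31.2 ± 9.51 CPM (SD, n = 2). The block of Mir344g, Mir344f and Mir344i had 106 and 26 counts, 19.1 ± 12.6 CPM. The 3 Mir344d genes together had 2 and 0 counts, and the block of Mir344e and the Mir344h genes had none in either library. Reads that map to several places are not in these counts. At the lower end, Mir344h-1 and Mir344h-2 have the same hairpin, and the miR-344d-3p arm lies in 5 hairpins. The low counts there are therefore not shown to be low expression.

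**Figure D3:**
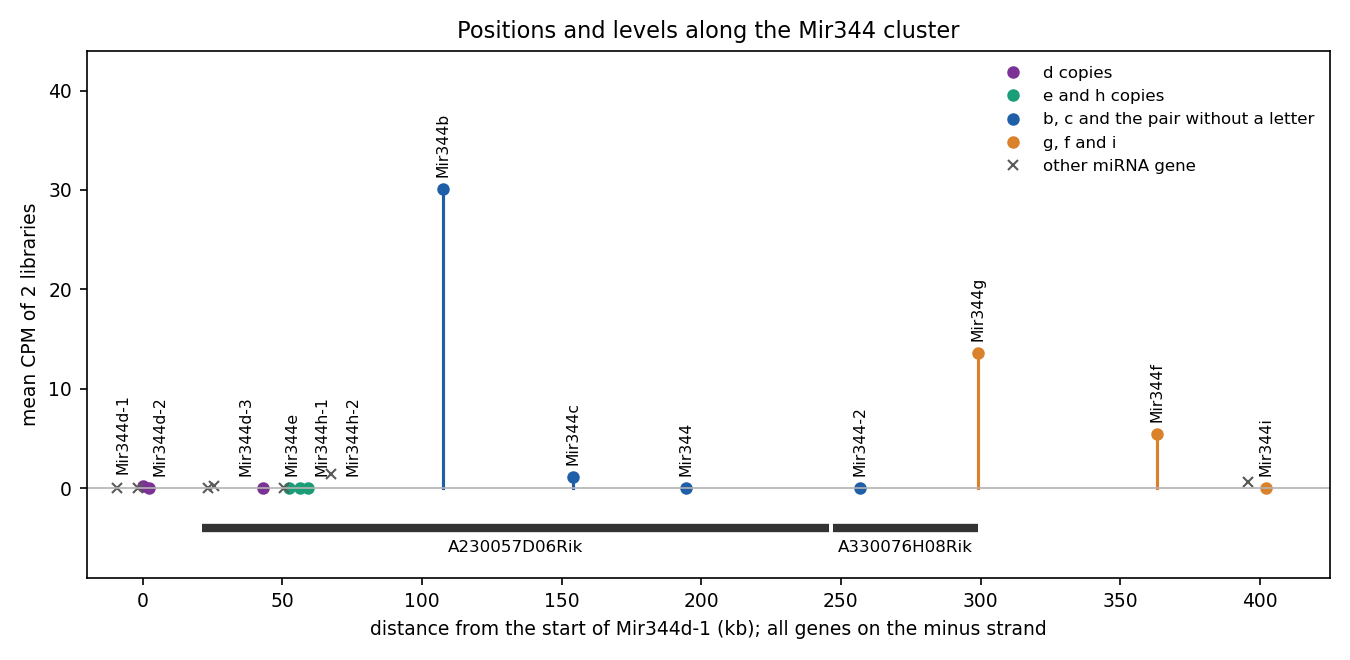
Mean CPM of the 2 libraries (vertical axis) against distance from the start of Mir344d-1 in kb (horizontal axis), coloured by group of like hairpins, with other miRNA genes as crosses and the 2 non-coding host genes as bars. The levels of 30.1, 13.6 and 5.44 CPM of Mir344b, Mir344g and Mir344f lie in the middle and upper stretch of the cluster. Reads that map to several places are not counted.

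The members were then grouped by whether they have an arm of their own. In 5 members (Mir344, Mir344-2, Mir344h-1, Mir344h-2 and Mir344i) every listed arm was also found in another annotated hairpin, and all 5 had 0 counts in both libraries. The other 8 members had at least 1 arm in their own hairpin only, and they held all 201 and 123 counts. Among these 8, 3 were detected, 2 had a few counts and 3 (Mir344d-2, Mir344d-3 and Mir344e) had none. The 3 detected members were, with Mir344c, those for which both arms were their own. For scale, of all 1087 miRNA genes sharing a stretch of 20 bases with another, 87.9% had no count in either library. The same grouping by arms was not made over all miRNA genes.

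Near matches did not separate the members in the same way. All sequences are of the mm10 reference, and variants of the CAST/EiJ chromosomes were not examined. The arms of Mir344b differed from the closest other hairpin at 3 bases (5′ arm) and 2 bases (3′ arm), and those of Mir344c likewise at 3 and 2. The 5′ arms of Mir344g and Mir344f were each 1 base from Gm24923, while miR-344e-3p, at 0 counts, was 3 bases from its nearest match. The miR-344d-3p arm lay in 5 hairpins, those of the 3 Mir344d genes and of the unnamed genes Gm23490 and Gm23962, and it also occurred in the A230057D06Rik transcript. The part of reads that map to several places in the zeros was not tested, since those reads were assigned to no gene, and how many mismatches the mapping allowed is not stated in the sources used here. For Mir344h-1 and Mir344h-2, with identical hairpins, a read inside either fits both, so for such reads their counts of 0 were fixed in advance. Their arms reach the ends of the hairpin, and the bases beyond those ends were not compared. A member at 0 with no arm of its own is therefore not shown to be silent.

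**Figure D4:**
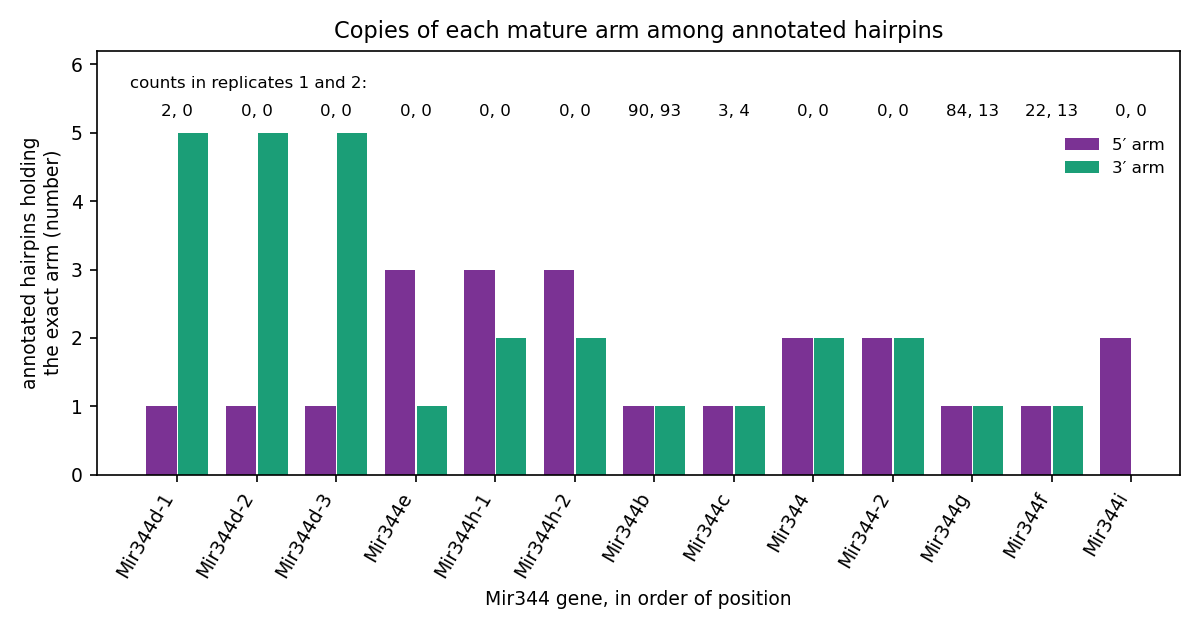
Number of annotated miRNA hairpins that hold the exact sequence of each 5′ arm (purple) and 3′ arm (green), by Mir344 gene in order of position, with the counts of replicates 1 and 2 above. Mir344b, Mir344c, Mir344g and Mir344f have 1 hairpin for both arms, while the miR-344d 3′ arm lies in 5, and Mir344i has a single listed arm.

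Stretches shared over the whole hairpin were also compared with the counts. A stretch of 20 bases in common with another, non-overlapping miRNA gene was present in 12 of the 13 members, all but Mir344c, against 49.4% of all miRNA genes. Among all 1087 genes with such a stretch, 7.82% were detected and 87.9% had no count in either library. Among the 1115 without one, these shares were 30.6% and 43.9%. In the family 3 of the 12 with a stretch were detected, and Mir344c, the 1 without, was not. Mir344b shares its stretch with Mir344 and Mir344-2, Mir344g with Mir344f, and Mir344f with Mir344g, Mir344i and Gm24923, so the counts of these 3 are uncertain where reads fall in it. Among other multi-copy families, 8 of 71 genes of the cluster in Sfmbt2 and 0 of the 3 miR-124 genes were detected, and 70 and 3 of them share such a stretch.

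The region holds 7 more annotated miRNA genes with Gm symbols, all on the minus strand, 5 of them between the outermost Mir344 genes. Each resembled a member closely. Gm24923 matched Mir344i at 96.6% of the shorter hairpin, Gm23962 matched Mir344d-1 at 94.2% and Gm23490 matched Mir344d-3 at 93.8%. For Gm23917 (with Mir344h-1), Gm22466 (with Mir344d-3), Gm23873 (with Mir344) and Gm25533 (with Mir344e) the figures were 91.7%, 91.3%, 87.1% and 86.4%. Together they had 13 counts in replicate 1 and 3 in replicate 2, and none reached 2 CPM in both libraries. Gm23873, in an intron of A230057D06Rik, had 8 and 2 counts, Gm24923 had 5 and 0, Gm22466 had 0 and 1, and the other 4 had none. By sequence and position these genes thus resemble the members though the family's names do not cover them, and they add little to its counts. Gm25533, the least alike, shares no stretch of 18 bases with another annotated hairpin. Whether they are copies by origin was not tested.

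By RNAfold the predicted folding energy of the members ran from -56.8 kcal/mol for Mir344, which had 0 counts, to -25.6 kcal/mol for the Mir344h genes, also at 0. The 3 detected members, at -34.4 (Mir344b), -43.5 (Mir344g) and -39.2 kcal/mol (Mir344f), lay inside that range. GC content of the hairpin was highest in Mir344g, at 62.0%, and lowest in Mir344d-2, at 45.0%.

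The replicates were then set against each other. Only 3 members had the 10 counts in sum needed for the two-sided exact binomial test, in which the library totals set the expected split and p-values were adjusted by Benjamini-Hochberg over the 507 miRNA genes tested. Of these 3, 2 differed between the libraries, where 52.1% of all tested genes did and 25.2% were higher in replicate 1. It is a comparison of these libraries, not of conditions. Mir344g was 4.35-fold higher in replicate 1 (adjusted p = 3.14e-08 by the exact test). Mir344b was 1.53-fold higher in replicate 2 (adjusted p = 0.00895 by the exact test). Mir344f was 1.14-fold higher in replicate 1, which did not pass (adjusted p = 0.912 by the exact test).

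Beyond counting error alone, Mir344g was thus higher in replicate 1 and Mir344b in replicate 2, as counts of these libraries. Mir344b gave 44.8% of the family's counts in replicate 1 and 75.6% in replicate 2. Mir344g gave 41.8% and 10.6%, and Mir344f 10.9% and 10.6%. The median log2 ratio of the 3 tested members, replicate 1 over replicate 2, was 0.17, and that of all 507 tested genes was 0.02. In absolute size the medians were 0.61 and 0.47. When the spread between replicates was added through a negative binomial test at the common dispersion from edgeR (coefficient of variation 0.378), neither call held, with adjusted p = 0.701 for Mir344g and 1 for Mir344b over all tested genes. At that setting 2 of the 507 genes were called in all. The dispersion was estimated from these same 2 libraries, so the tested difference was itself counted as spread. The loss of calls therefore cannot decide whether Mir344g and Mir344b differ by more than the usual spread.

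**Figure D5:**
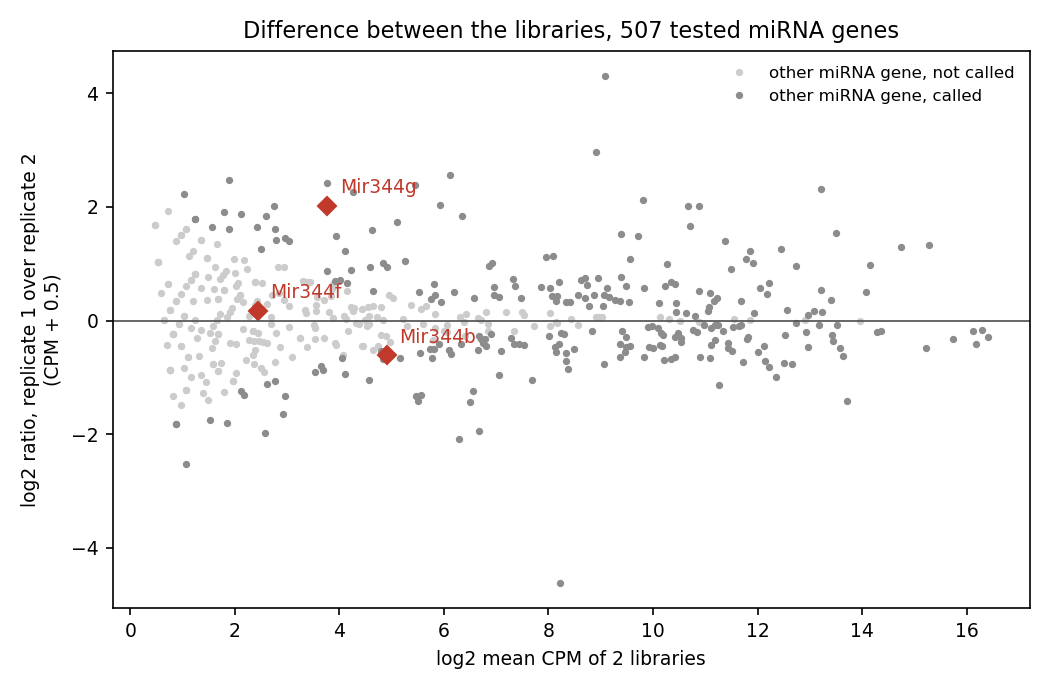
Log2 ratio of replicate 1 over replicate 2, from CPM + 0.5, against log2 mean CPM for the 507 tested miRNA genes, with genes called by the exact binomial test in dark grey, others in light grey and the 3 tested Mir344 genes as red diamonds. Mir344g stands at 2.02, Mir344f at 0.17 and Mir344b at -0.61.

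Over the 2 libraries, the genes outside the family closest in level to Mir344b were Mir24-2, Mir3078 and Mir3085. Their distances on the log2(CPM + 0.5) scale were 0.07, 0.12 and 0.17. Mir24-2 had 86 and 91 counts, Mir3078 83 and 90, and Mir3085 85 and 84. They lie on other chromosomes, and likeness over 2 libraries describes level only.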

How the data were processed

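The authors deposited 2 tables of raw, unnormalized read counts for annotated miRNA genes, on mm10 with GENCODE M21, per the accompanying text. They have no header line and 3 count columns (either strand, the gene's strand, the opposite strand). The gene's strand, taken as the larger of the stranded columns, was used. Another 4 rows, of reads given to no gene, stayed out of the totals. The aligner, the counter and any read filters were not given in the sources used here.

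All 2202 identifiers matched the annotation. Members were taken by symbol alone, but the family as a subject and the lists beside it were chosen with earlier results of these data known. All 13 members are named, as are miRNA genes within 1000000 bases and the 3 genes nearest in level to the most abundant member. CPM were computed over assigned counts, and log values as log2(CPM + 0.5). Intervals are 95% Clopper-Pearson. The exact binomial test used a minimum of 10 counts in sum and a threshold of 0.05, since edgeR's quasi-likelihood test has no contrast in 1 group. It was tested on simulated data with counting error only. That simulation cannot show how the test behaves with the spread between replicates seen here. Hairpins came from the GENCODE transcripts, arms from RefSeq, and both strands were searched for shared stretches and arms. No genome was used, so copies outside annotated hairpins and transcripts were not searched. Alignments scored 1 for a match, -1 for a mismatch, -3 and -1 for gap opening and extension, with free ends.

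Tools were Python 3.11.15, scipy 1.17.1, Biopython 1.88, RNAfold 2.7.2, R 4.3.3, edgeR 4.0.16 and DESeq2 1.42.0. Alternatives were the column that ignores strand, other minimums, scalings, stretch lengths and denominators, a negative binomial spread, and each library alone.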

Additional observations from a re-analysis of the deposited data

How the results depend on the processing

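With 1 group, no difference between conditions could be tested, and with 2 libraries each SD rests on 1 degree of freedom. Apart from leaving out a library, 52 alternative values were computed. Of these, 3 moved a value or count, and 3 were weaker: the calls of Mir344g and Mir344b and the count of members called. Members at 0 could not move in most of them. The column that ignores strand held the same counts for every member, so only the totals could differ there. Count filters cannot change a log2 ratio, nor the pseudocount a p-value. Unchanged values of these kinds are therefore no check of stability. The family share was 0.00158% of all reads, and 0.000118% without members that share a 20-base stretch, which leaves only Mir344c. It ranged from 0.00481% to 0.0053% in a library alone, and Mir344g from 5.09 to 22.1 CPM. With 2 libraries, a single one always lies within 1 SD of the mean, so this is no check of stability. At a minimum of 10 CPM, 1 member was detected instead of 3. Between libraries, 0 members were called with edgeR's common dispersion (1 at an unadjusted p under 0.05), against 2 by the exact test. That dispersion came from the same 2 libraries, so the loss of calls was largely built in. With TMM-scaled totals, DESeq2 size factors, the column that ignores strand and either count filter 2 were called. Stretches of 18, 22 and 25 bases left 13, 11 and 9 members sharing one. Depth limits the members at a few counts, and no alternative reaches reads that map to several places. No paired analysis was possible because there is 1 group.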
